A study of Mus musculus with 2 samples.

Results

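The cells described here are the vehicle-treated mouse renal progenitors with the highest share of Acta2 and Tagln transcripts, which encode smooth muscle actin alpha 2 and the actin-binding protein transgelin. Of 2854 cells in the vehicle library, 525 had less than 0.25% of their unique molecular identifiers (UMIs, each a counted transcript molecule) from the nuclear RNA Malat1, and 571 were in the top 20% by the summed share of Col4a1 and Sparc. These sets overlapped in 107 cells, and leaving both out kept 1865 cells. The members are the top 15% of the kept cells by Acta2 plus Tagln UMIs over all UMIs of the cell, which is 280 cells, out of 5135 cells in the series. The reference is the lower 50% of the kept cells by the same share, which is 932 cells, and 653 cells lie between. Members were chosen by these measured values, so the levels of Acta2 and Tagln in them, and the limits on Malat1, Col4a1 and Sparc, are descriptions of the choice.

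The study compared panobinostat, an inhibitor of histone deacetylases, with DMSO vehicle in Pax2-lineage cells. The cells came from 2 mice of 9 weeks on the C57Bl/6 strain, carrying the alleles Pax2.rtTA, TetO.Cre and R26.mT/mG, in which rtTA is driven by Pax2 sequences, turns on Cre, and Cre switches the R26 reporter to membrane GFP. Both groups share this genotype, 5 days of outgrowth from cultured glomeruli, the sort for GFP and 16 h of starvation, and then differ in 48 h with 0.2 µM panobinostat or DMSO. There is 1 library of 10x 3′ single-cell RNA-seq for each treatment (2854 vehicle and 2281 panobinostat cells), and cells of both mice are not told apart in it. No test between groups was therefore possible, cells are not replicates, and all intervals below are 95% intervals of counting error alone. PCR and droplet effects, and the spread between animals, cultures and libraries, are not in them.

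Acta2 and Tagln belong to the contractile gene set of smooth muscle, with calponin (Cnn1), regulatory myosin light chain (Myl9), leiomodin (Lmod1), smooth muscle myosin (Myh11) and tropomyosins. Many genes of this set are activated by serum response factor (Srf) with its cofactors, which bind a DNA element called the CArG box. In kidney, epithelial cells and fibroblasts in culture can also make smooth muscle actin and fibrous matrix, and cells that do so are often called myofibroblasts. The parietal epithelium of Bowman's capsule, where Pax2-marked renal progenitors lie, normally holds little of these transcripts.

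CArG boxes near the starts of the genes that follow were searched in RefSeq windows of GRCm38.p6 that run from 250 bases before to 50 bases after each start. The box is a pair of C, a run of A and T and a pair of G, it reads alike on both strands, and no other motif was searched. The exact box was found in 488 of 27025 genes with a window (1.81%), and a box with at most 1 letter of the run off in 3050 (11.3%). Of the 14 genes with the largest ratio of members to reference, 11 have a window and 4 hold the exact box (Acta1, Asb5, Fhl1 and Myl9). Of the contractile list, 2 of 15 genes with a window hold it (Myl9 and Ldb3), and of the list of actin cytoskeleton genes and Srf targets, 8 of 27 do. Both boxes of Acta2 are 1 letter off and start 84 and 34 bases before the RefSeq start. GENCODE M21, whose gene models differ, annotates untranslated region there. The boxes of Acta1 and Myl9 start 73 and 161 bases before the RefSeq start, outside the GENCODE genes. Those of Fhl1 and Asb5 start 102 and 211 bases before it, in GENCODE introns. Tagln had no window and was not searched. All these boxes are shown, 5′ to 3′ on the gene's strand with the box in capitals. Acta2 is shown because it chose the cells, and the other genes because they have some of the largest ratios described below.
Acta2, minus strand, chr19:34255438-34255467: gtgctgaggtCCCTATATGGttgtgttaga
Acta2, minus strand, chr19:34255388-34255417: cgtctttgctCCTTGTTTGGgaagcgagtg
Acta1, minus strand, chr8:123894829-123894858: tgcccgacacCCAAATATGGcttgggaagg
Myl9, plus strand, chr2:156775293-156775322: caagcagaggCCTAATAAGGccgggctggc
Fhl1, plus strand, chrX:56779571-56779600: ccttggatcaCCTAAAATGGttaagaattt
Asb5, plus strand, chr8:54550110-54550139: taattaaataCCAAAAAAGGaaatcatcgg
A match is a description of the letters and not evidence of binding.

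The vehicle library held 90754967 UMIs and the panobinostat library 104188927, with medians per cell of 27923.5 and 42394 UMIs, and no barcode occurred in both. Members were deeper than the reference, with medians of 32578.5 UMIs against 28244.5 and of 5706.5 detected genes against 5603.5. Without the 5% deepest cells the counts of genes given below (210 higher, 245 lower) would be 213 and 232. Their mitochondrial share was close, at a median of 5.43% against 5.16%.

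The property that chose the members was graded across cells. The Acta2 plus Tagln share of the members ran from 872 CPM of the cell (its UMIs of both genes per 1000000 of its UMIs), through a median of 2213, to 39819. In the reference it ran from 0, through a median of 29.7, to 76.2, and 358 of the 932 cells had no UMI of either gene. The member just above the lowest stood at 888, and the kept cells just outside at 867 and 861. There were 16 members within 10% above the lowest member and 10 kept cells within 10% below it, while 26 members reached 10 times its value. A cut on a continuous share has cells on both sides by construction, so the members are described as the upper end of a range and are given no cell type name.

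**Figure D1:**
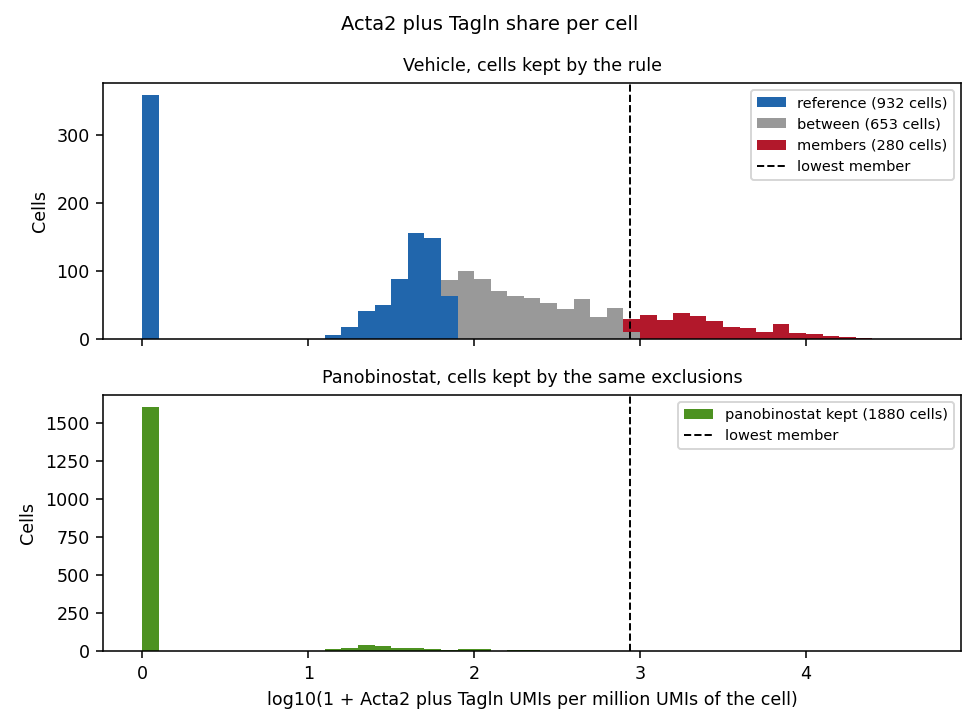
Histograms of cells by the log10 of 1 plus the summed Acta2 and Tagln CPM of the cell, for the 1865 kept vehicle cells (932 reference, 653 between, 280 members) and the 1880 panobinostat cells kept by the same exclusions. The dashed line is the lowest member at 872 CPM, and the vehicle cells run through it without a gap.

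Each gene's UMIs were summed over the 280 members and over the 932 reference cells and scaled to 1000000 UMIs (CPM). These values depend on transcript capture, so levels are compared between groups for a gene and not between genes. Acta2 (chr19:34241090-34255590, GRCm38) stood at 2001 CPM in members and 15.6 CPM in the reference. Tagln (chr9:45929619-45936058) stood at 2069 CPM in members and 11.6 CPM in the reference. Single members differed widely: Acta2 ran from 0 through a median of 900 to 17074 CPM of the cell, and Tagln from 0 through 1258 to 28608. A member could thus be without a UMI of either gene when the other was high.

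Among the other 8341 genes with at least 10 CPM in either sum, 210 (2.52%) were at least 1.5-fold higher in members and 245 (2.94%) at least 1.5-fold lower, with an interval that excluded equality. The median log2 ratio of all 8341 genes was -0.10, and 46.2% of the genes past the fold were higher. At 2-fold, 84 genes were higher (1.01%) and 38 lower (0.456%). With a floor of 1 CPM in place of 10, 493 of 12133 genes were higher (4.06%) and 568 lower (4.68%). TMM factors shift every ratio by 0.08 on the log2 scale, which gives 270 higher and 166 lower genes (61.9% higher). DESeq2 size factors shift them by 0.08 as well and give 266 higher and 168 lower (61.3% higher), and centring on the median gene gives 286 higher and 149 lower (65.7% higher). Lists below are described by their counts and medians beside these background values.

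Smooth muscle contractile genes were among those with the widest gaps. The list has 19 genes with a row, and 10 besides those 2 were past 10 CPM; their median log2 ratio was 1.51, and 8 of them exceeded 1.5-fold upward, 0 downward. Of the 8, Cnn1, Lmod1, Myl9 and Mcam passed the floor only through the members, where they are high, so the count and median rest partly on the floor. Of the 6 genes past it in the reference as well, 4 were higher. Calponin 1, Cnn1 (chr9:22099216-22109630), which binds actin in smooth muscle, ran from 0 through a median of 0 to 1338 CPM of the cell in single members, and from 0 through 0 to 159 in reference cells. Summed, it was 75.6 CPM against 1.97 CPM, a log2 ratio of 5.26 (4.88 to 5.67). The 28 members highest in Cnn1 held 74.0% of its UMIs, so the sum is set by a small part of the members and the cell ranges overlap.

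Leiomodin 1, Lmod1 (chr1:135324807-135368065), which nucleates actin filaments in smooth muscle, was 14.7 CPM in members and 0.534 CPM in the reference (log2 ratio 4.78, 4.04 to 5.63). Myosin light chain 9, Myl9 (chr2:156775420-156781658), the regulatory light chain of smooth muscle myosin, ran from 0 through 17.0 to 1513 CPM of the cell in members and from 0 through 0 to 465 in the reference. Its sums were 74.3 CPM and 4.91 CPM, a log2 ratio of 3.92 (3.66 to 4.19). Shares of cells with a UMI were taken after thinning each cell to 18663 UMIs (22 members and 131 reference cells were shallower and left out), which evens out depth. Free RNA in droplets can give single UMIs to any cell, and thinning does not remove it. After thinning, 42.2% of members and 5.4% of reference cells had a Myl9 UMI (51.8% and 8.4% unthinned), and for Cnn1 29.1% and 2.2% did (36.4% and 4.3% unthinned). The median depths of the groups before thinning are those above.

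Tropomyosin 2, Tpm2, which lines actin filaments in muscle and other cells, was expressed in most cells of both groups. It ran from 0 through 832 to 4930 CPM of the cell in members and from 0 through 172 to 2099 in reference cells. Its sums were 1035 CPM and 252 CPM (log2 ratio 2.04, 2.00 to 2.08). Caldesmon (Cald1, 0.94), Csrp1 (1.18) and the adhesion molecule Mcam (1.85) were also past 1.5-fold on the log2 scale of the ratio. Tropomyosin 1, Tpm1, was abundant in both at 4202 CPM and 2844 CPM, a log2 ratio of 0.56, just under the fold. Smoothelin (Smtn), a marker of contractile smooth muscle, was 180 CPM and 184 CPM, a log2 ratio of -0.03. The list's genes therefore differed among themselves, from near equality for Smtn to the wide gap of Cnn1.

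Other smooth muscle markers were at or near 0, unlike Smtn, Cnn1 and Lmod1. Smooth muscle myosin heavy chain, Myh11, had 8 UMIs in all members (0.801 CPM) and 2 in the reference. Desmin, Des, the intermediate filament of muscle, had 1 and 0 UMIs, and the Srf cofactor Myocd had 0 and 1. A count of 0 in the members allows up to 3 counts, which is 0.300 CPM. Acta2, Tagln and Myl9, the markers given with the rule, were high, while these 3 had few or no UMIs in either group.

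**Figure D2:**
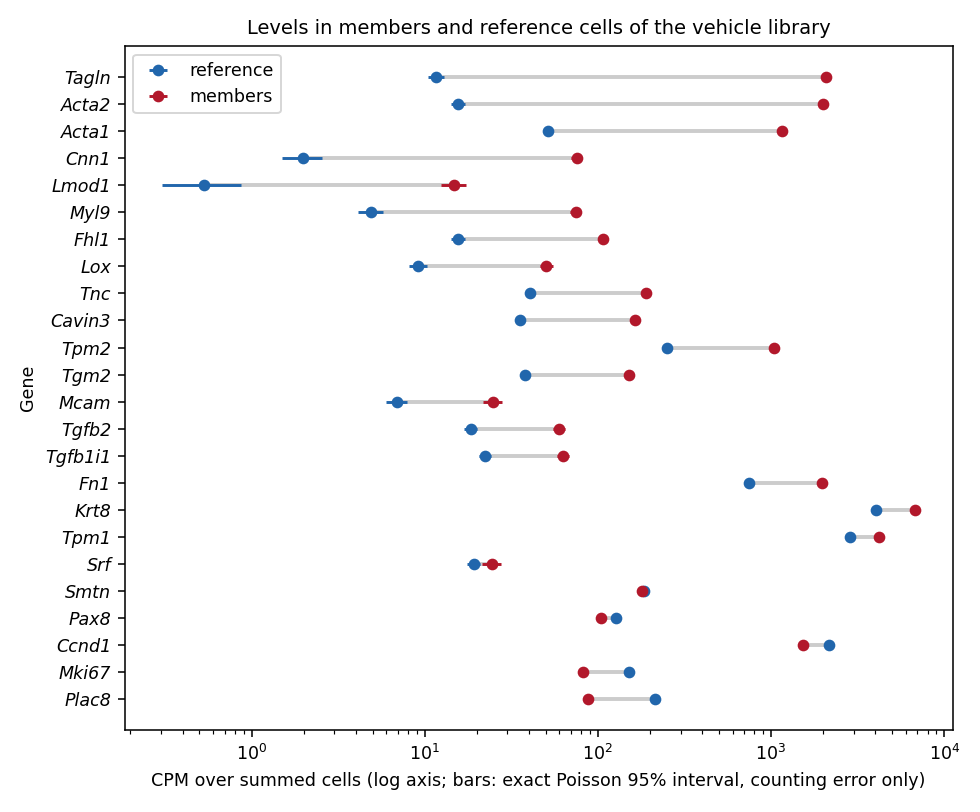
CPM on a log axis for 24 genes in the summed members (red) and reference cells (blue), with exact Poisson 95% intervals of counting error. Tagln and Acta2 chose the cells; Cnn1 (75.6 against 1.97 CPM), Lmod1 and Myl9 have the widest gaps of the contractile genes drawn, and Smtn has almost none.

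Actin genes and targets of Srf differed by smaller amounts. In this list 7 of 32 genes past 10 CPM exceeded 1.5-fold upward and 0 downward (median log2 ratio 0.34). When Tagln alone chose the cells, 2 of the 32 did so upward, beside 1.36% of all genes. Fhl1, a LIM-domain protein of muscle and focal adhesions, was 107 CPM in members and 15.6 CPM in the reference (log2 ratio 2.78, 2.62 to 2.94). Tgfb1i1, which encodes the adhesion protein Hic-5, was 63.1 CPM and 22.2 CPM (log2 interval 1.35 to 1.66). Calponin 2 (Cnn2), the non-muscle calponin, was 608 CPM and 369 CPM (0.72). Srf itself was 24.4 CPM and 19.2 CPM, a log2 ratio of 0.35 that is under the fold.

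Skeletal muscle actin, Acta1 (chr8:123891769-123894751), was outside the lists and had one of the largest ratios. It ran from 0 through 64.4 to 12135 CPM of the cell in members and from 0 through 0 to 13119 in reference cells, so its ranges overlap fully. Its sums were 1156 CPM and 51.8 CPM (log2 ratio 4.48, 4.40 to 4.56), and the 28 highest members held 66.4% of its UMIs. In the last 500 bases of their transcripts, Acta1 and Acta2 shared 0% of their 31-base words with the other actin genes compared, and likewise Tagln, Cnn1 and Myl9 with their relatives. Reads from this end would thus not be split between these copies by exact words of that length.

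Part of the genes of fibrous interstitial matrix were higher in members. Upward, 9 of 18 genes of that list past 10 CPM exceeded the fold, downward 0 did, and the median log2 ratio was 0.46. Fibronectin, Fn1, ran from 0 through 1264 to 10256 CPM of the cell in members and from 0 through 426 to 10146 in reference cells. Its sums were 1956 CPM and 748 CPM (log2 ratio 1.39, 1.36 to 1.41). The upper ends coincide while the medians differ.

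Tenascin C, Tnc, a matrix glycoprotein of wounds and development, was 189 CPM in members and 40.4 CPM in the reference (log2 ratio 2.23, 2.13 to 2.34). Lysyl oxidase, Lox, which crosslinks collagen and elastin, was 50.5 CPM and 9.12 CPM (2.47, 2.25 to 2.69). Lox passed the 10 CPM floor only through the members, where it is high, so the list's count and median rest partly on the floor. Col12a1 (1.39), Loxl2 (1.38), Timp3 (1.26), Wisp1 (1.02), Timp1 (0.61) and Col5a2 (0.61) complete the list genes past the fold, as log2 ratios. The fibrillar collagens that define fibroblasts were nearly absent, with 13 UMIs of Col1a1 in members and 10 in the reference, 0 and 1 of Col1a2, and 1 and 0 of Col3a1.

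Basement membrane genes were higher for 5 of 16 genes past the floor, 0 were lower, and the median was 0.25. Col4a1 (70.9 against 43.1 CPM, log2 ratio 0.72) and Sparc (33.4 against 19.6 CPM, 0.77) are in this list, and the rule capped their summed share at 327 CPM of the cell in both groups. Col4a2 (0.88) and Col4a3 (0.62) were also past the fold.

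The TGF-beta and BMP list had a median of 0.09, with 5 of its 23 genes of at least 10 CPM past the fold upward and 0 downward. The ligand Tgfb2 was 59.4 CPM in members and 18.5 CPM in the reference (log2 ratio 1.69, 1.52 to 1.86). The secreted modulators Fstl1 (53.1 against 24.7 CPM) and Fstl3 (log2 ratio 1.03) and the latent TGF-beta binding protein Ltbp2 (0.82) were also past it. Of Yap targets, 4 of 18 were higher and 0 lower, with a median of 0.37. Transglutaminase 2, Tgm2, which crosslinks matrix proteins, led them with 150 CPM against 37.8 CPM (1.99), followed by Dlc1 (1.07), F3, which encodes tissue factor (0.86), and Crim1 (0.66).

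Adhesion genes were mixed. The focal adhesion and integrin list, with 23 genes past the floor and a median of 0.18, had 4 genes past the fold upward and 1 downward. Itga5, the alpha chain of the fibronectin receptor, was 22.2 CPM and 4.51 CPM (log2 ratio 2.30), with 78.4% of its UMIs in the 28 highest members. It passed the 10 CPM floor only through the members, where it is high. Itga1, the alpha chain of a collagen and laminin receptor, was lower at 16.5 CPM against 30.7 CPM (-0.89).

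The GFP reporter, which marked the sort, was 7951 CPM in members and 7160 CPM in the reference, a log2 ratio of 0.15. Pax2 was 37.4 CPM and 42.6 CPM (-0.19), and Pax8, another renal epithelial transcription factor, was 104 CPM and 127 CPM (-0.28). E-cadherin, Cdh1, was 180 CPM and 142 CPM (0.34), and N-cadherin, Cdh2, was 219 CPM and 235 CPM (-0.10). The epithelial keratin Krt8 ran from 551 through 6046 to 21280 CPM of the cell in members and from 58.7 through 3557 to 16262 in reference cells. Its sums were 6732 CPM and 4042 CPM, a log2 ratio of 0.74 (0.72 to 0.75), which was 0.55 and under the fold when Tagln alone chose the cells.

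In the parietal epithelium and progenitor list, of 17 genes of at least 10 CPM 2 were higher (Krt8 and Ncam1, 1.03) and 3 lower, with a median of -0.11. The 3 were the progenitor marker Prom1 (58.2 against 104 CPM, -0.83), the adhesion molecule Vcam1 (9.21 against 15.4 CPM, -0.74), which marks parietal cells, and Aldh1a2 (44.3 against 76.4 CPM, -0.79), which makes retinoic acid. Vcam1 passed the floor only through the reference, where it is higher. It was not counted as lower with levels averaged over cells, without the 5% deepest cells, or within G1 or G2/M cells. Of 22 epithelial junction genes 1 was higher (Pkp2, 0.65) and 0 lower, with a median of -0.02. In the mesenchymal transition list, 2 of 11 genes were past the floor, Cdh2 and Hmga2, and 0 were past the fold in either direction. The Snai, Twist and Zeb genes were under the floor, so these counts do not cover them. With a floor of 1 CPM, 2 of 7 genes of this list were higher and 0 lower (median 0.49). Of all genes, 4.06% were higher and 4.68% lower at that floor.

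Markers of other cell types were low. In the mesangial and pericyte list, 2 of 14 genes with a row were past 10 CPM and 1, Mcam, was higher; the summed level was 45.8 CPM in members and 28.1 CPM in the reference. Its members Pdgfrb, Rgs5, Cspg4, Abcc9, Tbx18, Angpt1 and Sfrp2 had no UMI in the 280 members, and Pdgfrb had none in the reference either. The fibroblast list had 1 of 10 genes past the floor and summed to 21.5 and 16.1 CPM, with Col1a2, Dcn, Meox1 and Gli1 at 0 in members. The endothelial list summed to 15.02 and 20.9 CPM and the leukocyte list to 4.61 and 6.34 CPM, and Cdh5, Tek, Emcn and Cd52 were at 0 in members.

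Thy1, a surface protein of fibroblasts and neurons, was under the 10 CPM floor but had 60 UMIs in members and 7 in the reference, with a UMI in 6.20% and 0.375% of thinned cells (7.5% and 0.75% unthinned). The podocyte list summed to 699 and 745 CPM, with 4 genes past the floor, 0 past the fold, and Wt1 and Lmx1b at 0 in members. In the tubule list, of 3 genes past the floor the injury gene Lcn2 was higher (409 against 190 CPM, 1.11), and Havcr1 (-0.73), also induced in injury, and Cldn16 (-0.90) were lower. When Tagln alone chose the cells, 0 of the 3 were past the fold in either direction. Havcr1 was also not counted as lower with levels averaged over cells, without the 5% deepest cells, within G1 cells or with no Col4a1 and Sparc rule. Cldn16 was not within S cells or in thinned cells. The 28 highest members held 82.3% of the Lcn2 UMIs, and the median member stood at 27.2 against 0 CPM of the cell in the reference. When Tagln alone chose the cells, fewer of all genes were past the fold, 1.36% upward and 1.01% downward beside 2.52% and 2.94%. Counts past the fold were also smaller in several lists described above. Higher were 7 of 18 interstitial matrix genes (with 1 lower), 2 of 16 of basement membrane, 4 of 23 of TGF-beta and BMP, 2 of 18 Yap targets, 1 of 23 of focal adhesion (with 0 lower), 1 of 17 parietal and progenitor genes (with 2 lower) and 0 of 22 junction genes. The contractile list had 8 of 10 higher in that setting too, with a median of 1.196.

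**Figure D3:**
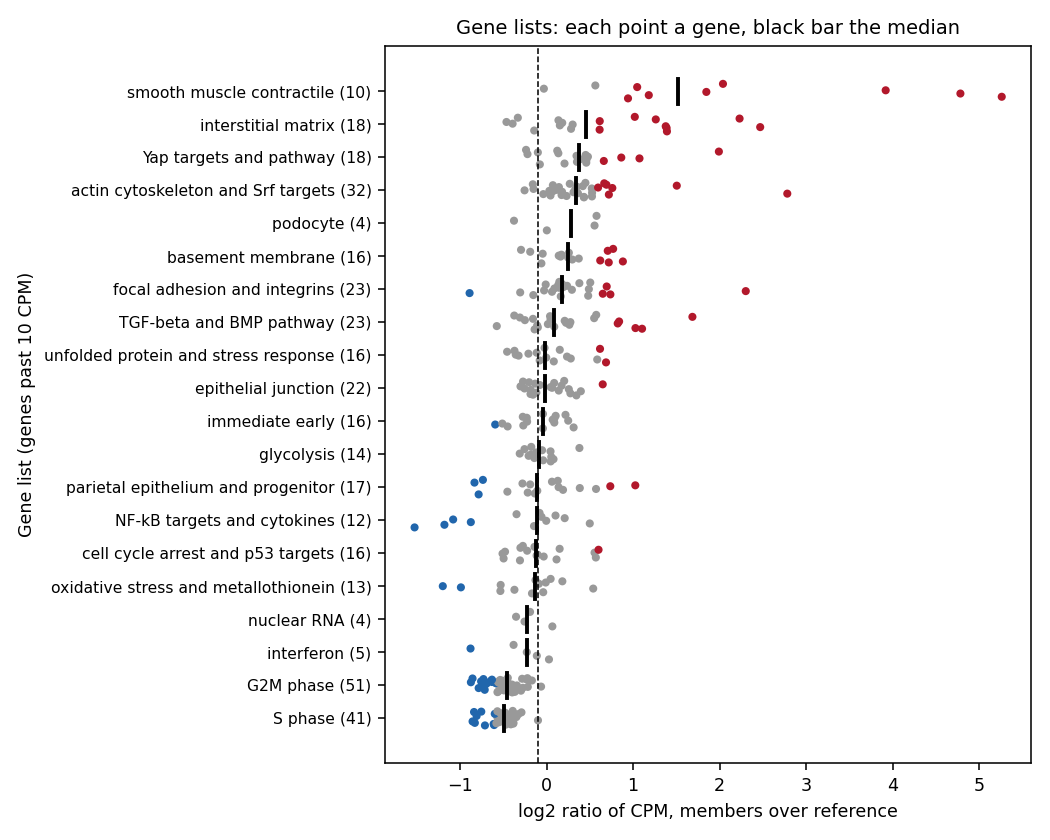
Log2 ratio of CPM, members over reference, for each gene past 10 CPM in 20 of the lists with at least 4 such genes (count in brackets), without Acta2 and Tagln. Red and blue points are at least 1.5-fold higher or lower, black bars are list medians and the dashed line is the median of all genes (-0.10); the contractile list has the highest median (1.51) and the S phase list the lowest (-0.49).

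Part of the proliferation genes were lower. The S phase list had a median of -0.49 over 41 genes of at least 10 CPM, of which 9 were past the fold downward and 0 upward. The G2/M list had a median of -0.46 over 51, with 12 downward and 0 upward. When Tagln alone chose the cells, 2 of 41 S phase and 0 of 51 G2/M genes were lower, beside 1.01% of all genes. With Acta2 alone, 11 of 41 and 32 of 51 were lower, beside 3.72% of all genes. The top 5% gave 35 and 36 lower, beside 8.94%, and the top 20% gave 4 and 6, beside 1.63%. Mki67, a protein of cycling cells, ran from 0 through 0 to 906 CPM of the cell in members and from 0 through 54.8 to 808 in reference cells. Its sums were 82.2 CPM and 151 CPM, a log2 ratio of -0.88 (-0.99 to -0.77). Uhrf1, which maintains DNA methylation in S phase, was 35.4 CPM and 63.3 CPM (-0.84). Cyclin D1, Ccnd1, was 1535 CPM and 2168 CPM, a log2 ratio of -0.50 that is under the fold.

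Phases scored from these lists in thinned cells showed the same contrast in other terms. G1 was assigned to 51.2% of members (44.9 to 57.4) and 37% of reference cells (33.6 to 40.4), against 50.7% and 37.2% unthinned. G2/M was assigned to 28.7% and 38.2%, and S to 20.2% and 24.8%. The members' fraction in G1 differed along the range: 38.4% of thinned cells from 85% to 90%, 55.6% from 90% to 95% and 59.3% in the top 5%.

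The proportion of cells in each phase therefore moves with the choice of cells, and the comparison was made within phases. Among G1 cells (142 members, 347 reference), 208 of 8199 genes were higher (2.54%) and 327 lower (3.99%). The genes from all phases made up 152 and 127 of them. Over all genes, 3.72% were higher and 5.10% lower within S cells, and 3.04% and 3.35% within G2/M cells. Within G1, 0 of 20 S phase genes of at least 10 CPM exceeded the fold, and Mki67 turned from -0.88 to 0.51. The phases were scored from these same lists, which conditions what is left of them within a phase. For S phase genes, 4 of 42 were lower within S cells (median -0.38) and 1 of 40 within G2/M cells, with 0 higher in either. For G2/M genes, 0 of 52 were past the fold within G2/M cells (median -0.17). Within S cells 7 of 49 were lower and 1 higher, and within G1 cells 2 of 26 were lower and 1 higher. Counts near the shares over all genes in the same phase say little about the lists. Contractile genes were higher within each phase, with some differences: 9 of 10 genes of at least 10 CPM were higher in G1, 8 of 10 in S and 7 of 9 in G2/M, where the list's median was 0.94 and Lmod1 was under the 10 CPM floor. Cnn1 had log2 ratios of 5.49, 4.67 and 5.10 in the 3 phases, Fn1 of 1.18, 1.80 and 1.11, and Krt8 of 0.76, 0.70 and 0.55.

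Further genes that were lower include inflammatory and metal-binding genes. The list of NF-kB targets and cytokines had a median of -0.11 over 12 genes of at least 10 CPM, 4 of them past the fold downward and 0 upward. The 4 were the chemokines Ccl20 (9.92 against 28.6 CPM, -1.53), Cxcl1 (22.7 against 51.6 CPM, -1.18) and Cxcl2 (-0.88), and the interleukin 1 antagonist Il1rn (-1.08). Ccl20 passed the floor only through the reference, where it is higher. The 28 highest members held 100% of the Ccl20 UMIs, and after thinning 6.20% of members and 11.98% of reference cells had a UMI of it (6.79% and 15.02% unthinned). When Tagln alone chose the cells, 1 of 11 genes of this list was lower and 1 higher, beside 1.01% and 1.36% of all genes. Cxcl1 and Cxcl2 were then under the fold and Il1rn under the 10 CPM floor. The metallothioneins Mt1 (119 against 236 CPM, -0.99) and Mt2 (22.1 against 50.9 CPM, -1.20), which bind zinc and copper, were the 2 lower genes of 13 in the oxidative stress list, with 0 higher.

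Plac8 had the smallest ratio of the genes with at least 50 CPM, at 87.5 CPM in members and 215 CPM in the reference (-1.30, -1.40 to -1.19). It ran from 0 through 25.6 to 828 CPM of the cell in members and from 0 through 106 to 1924 in reference cells. Semaphorin 3C, Sema3c, a secreted guidance protein, followed at 45.2 CPM and 107 CPM (-1.25). Tmem252 (-1.13), Il5ra (-1.04), Lmo7 (-0.97), the tissue plasminogen activator Plat (-0.97) and the interferon-induced Ifit3 (-0.88) were the next named. Glycolysis genes were past the fold for 0 of 14 in either direction, with a median of -0.09.

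Some of the highest ratios rested on few cells. Lce1g and Lce1h, proteins of the cornified epidermal envelope, had log2 ratios of 2.90 and 2.08, but 91.0% and 74.2% of their member UMIs came from 28 cells. They share 17.0% and 32.1% of the 31-base words of their last 500 bases with other Lce1 genes, so their counts are uncertain. The orphan receptor Gpr50 (2.79) and Asb5 (2.66) had 88.5% and 89.0% of their UMIs in 28 members. The caveolar protein Cavin3 (164 against 35.7 CPM, 2.20) and the calcium-binding protein Tesc (104 against 28.2 CPM, 1.88) were more evenly spread, at 49.8% and 48.1%.

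Levels were then followed along the range of the kept cells, from the lower 50% through 50 to 85%, 85 to 90% and 90 to 95% to the top 5%. Cnn1 stood at 1.97, 4.98, 17.5, 27.0 and 162 CPM in that order. Myl9 stood at 4.91, 15.3, 40.0, 49.95 and 122 CPM. Tpm2 stood at 252, 413, 672, 857 and 1477 CPM. Each step was upward for these 3, so their sums from 50 to 85% lay between those of the reference and the members. Such sums do not show whether single cells were intermediate, and cells just below the member limit were not summed apart.

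Fn1 also went up at each step, at 748, 966, 1636, 1950 and 2229 CPM, and Krt8 at 4042, 4782, 5785, 6710 and 7542 CPM. Acta1 did not keep this order, with 668 CPM from 85 to 90% and 463 CPM from 90 to 95%, before 2102 CPM in the top 5%. Plac8 went down at each step, at 215, 175, 117, 99.2 and 53.7 CPM. The S phase gene Uhrf1 was slightly higher from 50 to 85% (66.9 CPM) than below (63.3 CPM), and then lower at 47.2, 33.8 and 26.7 CPM.

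**Figure D4:**
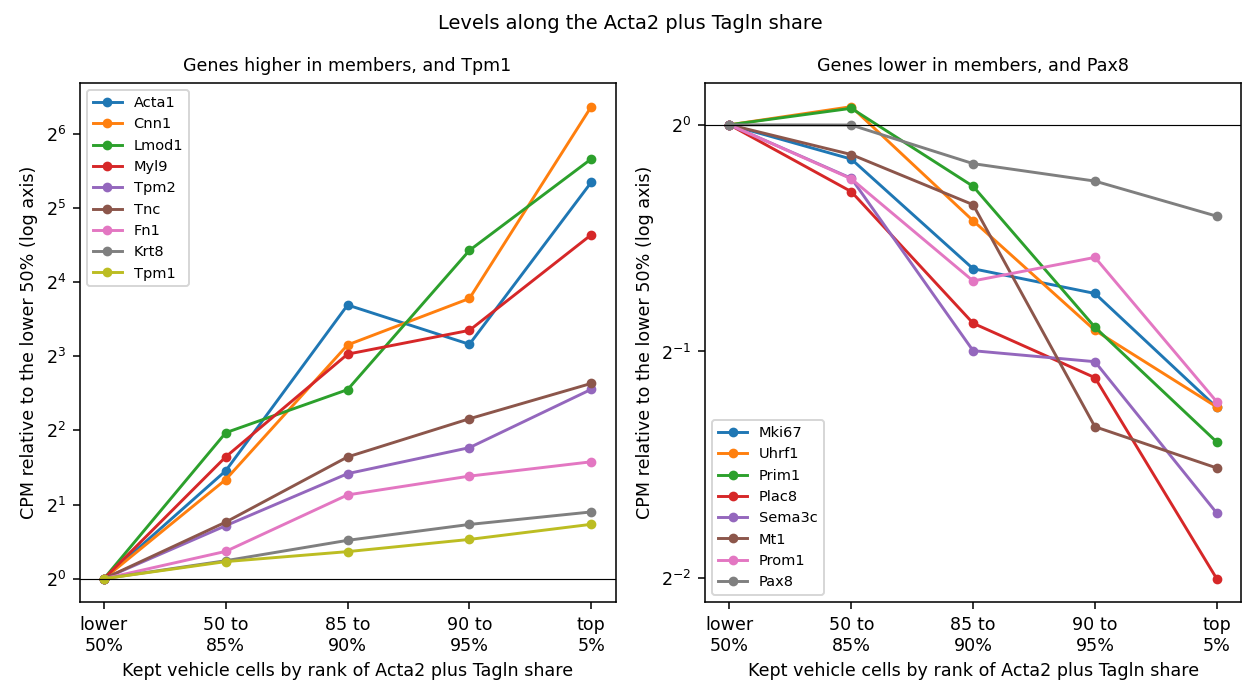
CPM relative to the lower 50% (log axis) for genes in the kept vehicle cells, by rank of the Acta2 plus Tagln share, from summed UMIs with no error drawn. Cnn1, Myl9, Tpm2, Fn1 and Krt8 are higher at each step, Acta1 is not in order, and Plac8 is lower at each step.

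Cells near each other in expression were compared without the genes of the contractile and actin lists. In a space of 30 principal components, 30.98% of the 15 nearest kept cells of a member were members on average. The value was 12.5% for cells between, 7.63% for reference cells and 12.85% over all kept cells, of which members are 15%. For the top 5% the value was 42.1%. Single members ranged from 0% to 93.3%, so members were found next to each other more often on average but did not form an isolated group.

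The rule was also applied to cells that did not choose the members. Among vehicle cells left out for high Col4a1 plus Sparc, the lowest member's share was reached by 235 of 571, and 119 of 418 cells left out for low Malat1 alone reached it. Of the former, 181 with enough Malat1 were compared with 129 that had a share as low as the reference. In them 324 of 8489 genes were at least 1.5-fold higher (3.82%) and 461 lower (5.43%). Of the 210 genes higher in members, 197 were past the floor there, 150 were higher (76.1%) and 1 was lower. Of the 245 lower genes, 218 were past the floor, 125 were lower (57.3%) and 1 was higher.

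In these cells Cnn1 was 158 CPM against 1.33 CPM, a log2 ratio of 6.89 beside 5.26 in the members. Myl9 was 147 CPM against 1.86 CPM (6.30 beside 3.92) and Fn1 was 2541 CPM against 992 CPM (1.36 beside 1.39). Cnn1 and Myl9 passed the 10 CPM floor there only through the 181 cells, where they are high. Krt8 was 5046 CPM against 2986 CPM (0.76 beside 0.74), and Plac8 was 46.1 CPM against 132 CPM (-1.52 beside -1.30). Past the fold downward were 19 of 41 S phase genes and 22 of 52 G2/M genes, and 0 of either were upward.

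Few panobinostat cells reached the members' level. After the same exclusions, 18 of 1880 panobinostat cells were at or above the lowest member (0.957%, exact binomial 0.568 to 1.51), beside the 15% of vehicle cells that the rule sets. In 1601 of the 1880 there was no UMI of Acta2 or Tagln, although these cells were deeper. With cells thinned to 18663 UMIs the share was 17 of 1850 (0.919%). Summed over the whole libraries, Tagln was 59.5 CPM and Acta2 12.0 CPM in panobinostat. Treatment cannot be told apart from library, since there is 1 of each.

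The 18 cells differed from the members in the make-up of the share. Tagln stood at 1787 CPM in them, beside 2069 CPM in members, while Acta2 stood at 190 CPM, beside 2001 CPM. With a limit set on Acta2 alone 4 of 1880 panobinostat cells passed (0.213%), and with Tagln alone 29 did (1.54%). The median depth of the 18 cells was 58748 UMIs and that of the 1787 panobinostat cells with a share as low as the reference was 42153; the part of depth in the result was not tested.

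Between the 18 and the 1787 cells, 510 of 8531 genes were at least 1.5-fold higher (5.98%) and 515 lower (6.04%). Of the 210 genes higher in vehicle members, 169 were past the floor, 81 were higher (47.9%) and 2 lower. Of the 245 lower genes, 151 were past the floor, 50 were lower (33.1%) and 5 higher. Myl9 was 32.8 CPM against 2.45 CPM, Acta1 508 CPM against 14.3 CPM, and Tnc 63.7 CPM against 10.6 CPM. Cnn1 was 25.1 CPM against 8.99 CPM (log2 ratio 1.48, 0.86 to 2.04), beside 5.26 in vehicle.

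Fn1 was 1553 CPM against 600 CPM (1.37), close to its vehicle ratio of 1.39. Krt8 was 1656 CPM against 1813 CPM (-0.13), while in vehicle members it was higher. Upward of the fold were 7 of 9 contractile genes and downward 0 (median 0.64), and of the interstitial matrix list 10 of 21 were higher and 1 lower. Cnn1 and Myl9 passed the 10 CPM floor only through the 18 cells, where they are high, so the contractile count and median rest partly on the floor. Of the epithelial junction list 7 of 21 were lower and 0 higher in panobinostat, beside 0 of 22 lower in vehicle members. All differences between treatments are given side by side and were not tested.

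**Figure D5:**
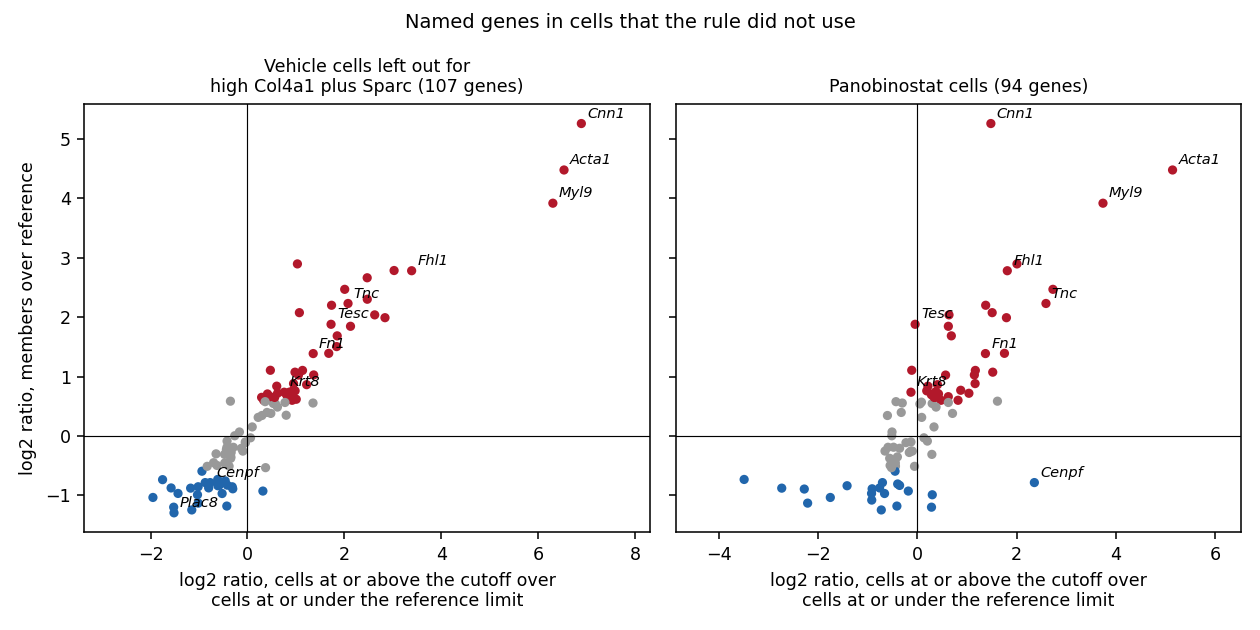
Log2 ratios of named genes past 10 CPM with more than 3 UMIs in each sum: members over reference (vertical) against the same contrast in vehicle cells left out for high Col4a1 plus Sparc (left) and in panobinostat cells (right). Red and blue points are at least 1.5-fold higher or lower in members; Cnn1 and Myl9 are to the right in both, and Cenpf lies on opposite sides in the vehicle members and the 18 panobinostat cells.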

How the data were processed

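UMI counts of 19394 genes in 5135 cells were deposited by the authors as 1 sparse matrix of whole numbers, unnormalized; Cell Ranger 3.0.1 and mm10 are named in the submitters' processing notes, with no role given. Which gene models were counted is not known here. The barcode endings CTRL and PANO were read as vehicle and panobinostat. Coordinates are from GENCODE M21 (GRCm38, the assembly of mm10) by symbol, and promoter windows from RefSeq.

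UMIs were summed over members and over reference cells. Log2 ratios of CPM have exact conditional binomial 95% intervals, levels exact Poisson intervals and shares exact binomial (Clopper-Pearson) intervals, all of counting error only. A gene was counted as higher or lower at 1.5-fold or more with an interval excluding equality and 10 CPM in at least 1 sum; a gene can pass that floor through the group where it is high. Acta2 and Tagln were left out of the counts. No p-value was computed. Doublets were not called, and leaving out the 5% deepest cells is among the alternatives. Phases were scored with scanpy 1.11.5. Neighbours were taken among 2000 variable genes and 30 components.

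The members and the 27 gene lists were chosen with earlier results of these data known. Named are, of genes with at least 50 CPM in either sum and 10 UMIs in each, the 14 largest and 10 smallest ratios (without Acta2, Tagln, mitochondrial, ribosomal protein and unnamed genes), up to 4 genes per list with the largest absolute ratio, 17 genes always named, and defining markers of other cell types at 0. Other list genes past the fold, Cdh1, Thy1 and the genes in counts of 5 or fewer were named after their values were seen. Poisson counts were simulated for each gene in the 2 sums from their pooled proportions. Of 50 genes each, 50 set at 2-fold, 50 at 0.5-fold and 50 at 4-fold were called, 0 at 1.2-fold, and 0 of 8073 unchanged genes. Spread between cells was not simulated, so this checks the calling rule and cannot show how often groups of real cells give false calls. Alternatives used TMM (edgeR 4.0.16) and DESeq2 1.42.0 size factors, other folds, floors, cutoffs, phases and thinning. Software was R 4.3.3 and Python 3.11.15 with scipy 1.17.1 and numpy 2.4.6. Some genes that the naming rule picks, and 1 list, are not reported here.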

Additional observations from a re-analysis of the deposited data

Results flagged for a closer look

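Cenpf, a kinetochore protein made in G2 and mitosis, was lower in vehicle members than in the reference (91.9 against 158 CPM, log2 ratio -0.79) and higher in the 18 panobinostat cells than in those below (24.2 against 4.71 CPM). Its panobinostat log2 ratio was 2.36 (1.71 to 2.94, counting error only). It drew attention because its sign is opposite in the 2 treatments while it is past 1.5-fold in both. The vehicle value was under the fold within G1 cells (-0.28), within G2/M cells (-0.48) and when Tagln alone chose the cells (-0.46), and it was 0.12 within S cells. Tagln made up most of the chosen share in the panobinostat cells. The difference was not tested, and it rests on 18 cells of 1 library.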

How the results depend on the processing

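The 210 higher and 245 lower genes were recounted under 23 alternatives. A 2-fold limit left 84 and 38, and a 3-fold limit 38 and 2. A floor of 1 CPM gave 493 and 568, and a floor of 50 CPM 104 and 46. Choosing by Tagln alone gave 113 and 84, of which 110 and 74 were shared with the reported genes. The top 5% gave 340 and 749; for lower genes alone, the top 10% gave 443, the top 20% 136, no Malat1 rule 376, no Col4a1 and Sparc rule 392, S cells 428 and centring on the median gene 149. Choosing cells on one random part of each cell's UMIs and measuring in the other gave 221 and 292, with 184 and 185 shared. The panobinostat share of 0.957% became 0.479% at the top 10%, 1.54% at the top 20%, 0.213% with Acta2 alone and 1.54% with Tagln alone. Of 73 named genes past the fold, 33 stayed past it in every alternative but the higher folds and the floor of 50 CPM. Signs turned for 3: Mki67 in G1 cells (0.51), Cenpf in S cells (0.12) and Nek2 in S cells (0.32). The cause was not tested, except that a higher fold or floor leaves fewer genes by construction. No paired analysis was possible because there is 1 library per treatment and the result comes from no test. Genes under 10 CPM have few UMIs, which limits what can be seen of them.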
